A study of Danio rerio with 63 samples.

Results

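The genes described here encode the enzymes and the carrier protein with which a brain could make its own androgens. They were named one by one, as star, cyp11a1, cyp17a1, hsd3b1, hsd17b3, hsd17b4, hsd17b12a, hsd17b12b and srd5a1. Of these 9 symbols, 8 have a row among the 15418 genes of the table, and hsd3b1 has none and was not analysed here. Transcripts were counted in adult zebrafish by bulk RNA barcoding sequencing (BRB-seq), in which each captured molecule is read near its 3′ end and counted once through a unique molecular identifier (UMI). The question behind the study was what a mutation of brain aromatase, the enzyme that turns androgens into estrogens, does to the brain. Per the paper, the mutants had lower brain aromatase activity, but some enzyme and activity remained. The groups were cyp19a1b-mutant males (5 pools), mutant females (4 pools), WT males (6 pools) and WT females (6 pools). The mutants descend from 1 line made with TALENs, which carries a deletion of 10 nucleotides in exon 2, and the WT fish were of the AB strain; no fish received a treatment. A pool joined 3 fish of 1 sex and genotype before RNA was extracted. By their labels, the olfactory bulbs (OB), the telencephalon (Tel) and the hypothalamus were each sequenced as a library of their own, 63 in all. The deletion lies in the coding sequence and, per the paper, leads to a premature stop codon. The counted 3′ end does not cover it, so the cyp19a1b count does not read the genotype directly.

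Steroid synthesis starts from cholesterol. StAR, the product of star, carries cholesterol to the inner mitochondrial membrane, where Cyp11a1 cuts its side chain to give pregnenolone. A 3β-hydroxysteroid dehydrogenase and Cyp17a1 turn pregnenolone into androstenedione, and Hsd17b3, in mammals the enzyme of the testis that completes the hormone, reduces androstenedione to testosterone. Testosterone is a substrate of aromatase, or of the 5α-reductases such as Srd5a1, which make dihydrotestosterone. Androstenedione is a substrate of aromatase too, and the paper's activity assay used it. Hsd17b4 and Hsd17b12 share the hydroxysteroid dehydrogenase fold but are best known for lipid work in mammals: Hsd17b4 is the multifunctional enzyme of peroxisomal β-oxidation and can oxidize estradiol, and Hsd17b12 reduces ketoacyl chains during the elongation of fatty acids and can reduce estrone. Zebrafish carry a pair of Hsd17b12 genes. In the teleost brain, aromatase is found in radial glia, the progenitor cells that line the ventricles.

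Library totals ran between 21444 and 1033008 UMIs, with a median of 281160, so that 1 UMI stood for 1.09 to 29.7 counts per 1000000 (CPM, scaled by the TMM method of edgeR) with a median of 3.68 CPM. Mutant groups were the shallower ones, with median totals between 66680 and 228224 UMIs, against 275347 to 583930 UMIs in WT groups. Libraries labelled OB differed from the others in kind. A list of olfactory sensory neuron genes summed to 1273 to 3630 CPM in OB libraries, against 15.1 to 148 CPM in Tel libraries, and a list of neuron genes to 482 to 1463 CPM in OB libraries, against 6224 to 10094 CPM in Tel libraries. A microglia list led by apoeb reached 10180 to 19090 CPM in OB libraries, against 343 to 1052 CPM in Tel libraries. Nearly all of it in OB libraries was apoeb, with a median of 14802 CPM. Medians of c1qa, c1qb and mpeg1.1 were also higher in OB than in Tel libraries. That of csf1ra was 0 CPM in both, and p2ry12 was counted in no OB library. The 8 genes chosen to mark the bulbs summed to 1237 to 3034 CPM in OB libraries, against 639 to 902 CPM in Tel libraries, and of the 5 tested, 2 were higher and 2 lower in OB than in Tel of WT fish. Most of the OB sum was calb2a, with a median of 1909 CPM in OB libraries and 42.3 CPM in Tel libraries. Medians of sp8a were 74.2 CPM in OB and 12.8 CPM in Tel libraries and those of dlx5a 123 and 85.6 CPM, whereas eomesa had 1.3 CPM in OB and 536 CPM in Tel libraries, and th and tbx21 had a median of 0 CPM in OB libraries. These markers moved with the comparisons of the OB with another region, and their part in those results was not tested. OB is used here as the label of these libraries, and which tissue they hold beside or in place of bulb was not tested. A single Tel library, pool B2 of mutant males, held 1511 CPM of oxt, the oxytocin precursor gene of the hypothalamus, against a median of 12.4 CPM over the Tel libraries. The main mutant results of hsd17b3 and hsd17b12a are also given without that pool. Replicates are pools of separate fish, and in bulk RNA fewer cells of a type cannot be told apart from less RNA per cell.

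The 8 genes covered a wide range of abundance. Over all 63 libraries, hsd17b12a gave 1726 UMIs, hsd17b3 645, hsd17b12b 567, hsd17b4 460, cyp11a1 108, srd5a1 86, cyp17a1 67 and star 31. A filter on low counts kept hsd17b12a in every region, hsd17b3 in the Tel and the hypothalamus, and hsd17b4 and hsd17b12b in the hypothalamus only, while all 4 were tested between regions. The carrier and the enzymes of the first steps, star, cyp11a1 and cyp17a1, and the 5α-reductase srd5a1 were too low to test in any region and are given below as counts. Each molecule is counted once at its 3′ end whatever the length of the transcript, so CPM values can be set side by side between genes as far as their 3′ ends are annotated.

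In WT libraries the order of mean CPM depended on the region. In the OB, hsd17b12a averaged 75.1 ± 22.3 CPM, hsd17b12b 23.1 ± 8.2, hsd17b4 22.3 ± 9.6, cyp11a1 13.2 ± 6.0, srd5a1 5.93 ± 2.82, hsd17b3 4.87 ± 5.46, cyp17a1 2.30 ± 2.36 and star 1.85 ± 3.05 CPM (SD, n = 12 pools). In the Tel, hsd17b12a averaged 70.5 ± 26.5 CPM, hsd17b3 51.0 ± 31.3, hsd17b12b 28.1 ± 12.2 and hsd17b4 26.1 ± 11.0, and the other 4 genes stayed below 4 CPM. In the hypothalamus, hsd17b12a averaged 100.5 ± 33.2 CPM, hsd17b12b 32.6 ± 11.0, hsd17b3 31.0 ± 13.4 and hsd17b4 21.4 ± 4.6, and the other 4 genes again stayed below 4 CPM. Within these orders, hsd17b12b and hsd17b4 lay within their spread of each other in the OB and the Tel, as did hsd17b12b and hsd17b3 in the hypothalamus. The hydroxysteroid dehydrogenases thus made up most counted transcripts of the list, and hsd17b3 was the gene whose place in the order moved most between regions.

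**Figure D1:**
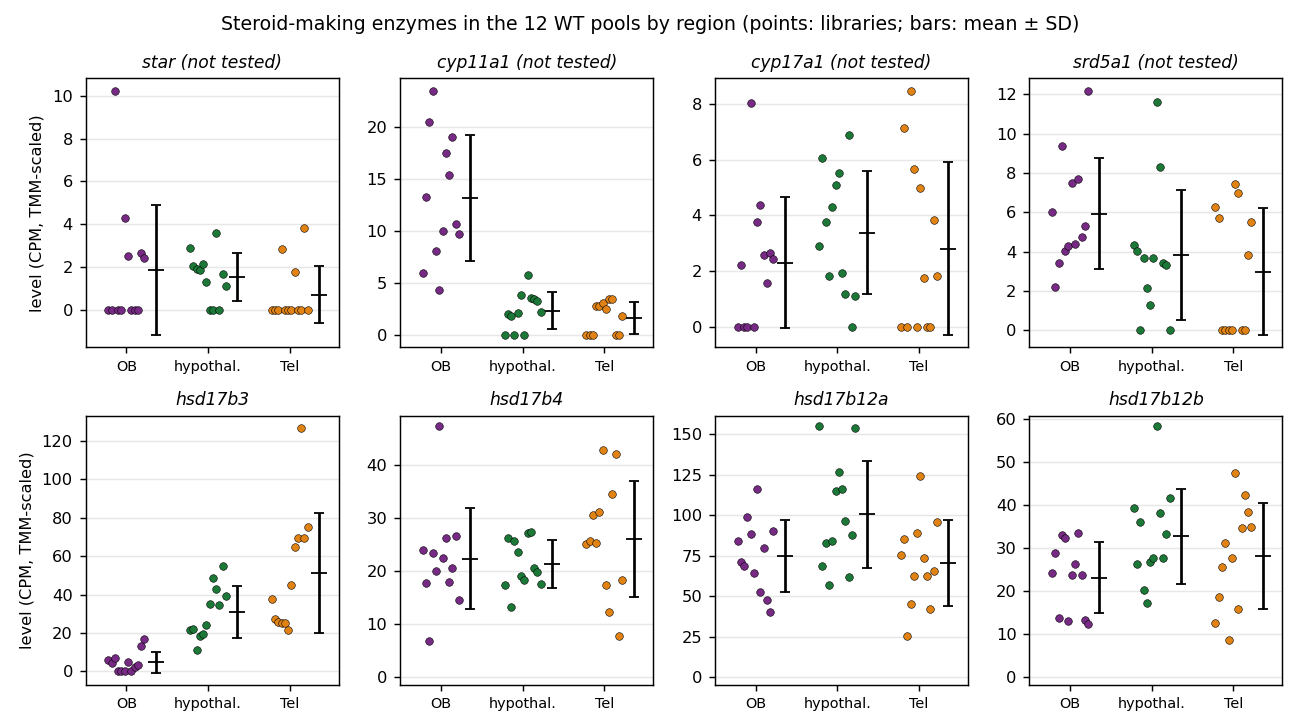
TMM-scaled CPM of the 8 genes in WT pools, by region (OB, hypothalamus, Tel), each gene on a linear axis of its own; points are libraries and bars are the mean ± SD of 12 pools. hsd17b12a has the highest mean in each region, cyp11a1 stands highest in OB libraries (mean 13.2 CPM), and hsd17b3 is near 5 CPM in OB libraries against 51.0 CPM in Tel libraries.

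Within the Tel, the sexes were separated in hsd17b3. In the Tel of mutant males it stood at 84.0, 106, 69.6, 80.5 and 66.7 CPM, against 0, 21, 44.2 and 40.3 CPM in mutant females, whose values rest on 0, 1, 5 and 8 UMIs. In the Tel of WT males it ranged over 44.8 to 127 CPM with a median of 69.2 CPM, against 21.4 to 37.8 CPM with a median of 25.5 CPM in WT females. In each genotype the lowest male library of the Tel lay above the highest female library. How many of all genes separate groups without overlap was not counted, here or for the comparisons of hsd17b3 below. The difference passed the test in WT fish, with a log2 fold change of 1.35 ± 0.25 (SE; males over females, 2.54-fold, 95% interval of the log2 value 0.84 to 1.86, adjusted p = 0.0206 by the quasi-likelihood test of edgeR, adjusted by Benjamini-Hochberg over the 4437 genes tested). A call here and below means an adjusted p of at most 0.05 and a change of at least 1.5-fold; only 0.0451% of the genes were called between WT sexes in the Tel, and hsd17b3 ranked 2nd by p.

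In mutant fish the log2 fold change in the Tel was 1.2 ± 0.37, with an adjusted p of 0.115 in the same fit, and was not a call, where 1.19% of genes were called. Without pool B2 of mutant males it was 1.25 with an adjusted p of 0.121. The sex difference did not differ detectably between genotypes: the interaction was −0.15 ± 0.46 on the log2 scale, with a 95% interval of −1.09 to 0.80 and an adjusted p of 1.00 in edgeR (0.496% of genes called). The WT call was kept in 25 of 31 alternatives, of which 21 left out 1 pool each, mutant pools included. It was lost when only the groups compared were fitted (adjusted p = 0.0673 in edgeR). Leaving out any 1 of 5 of the 12 WT pools also ended it. These were pools B1, B2, C1 and C2 of WT females and pool C2 of WT males (log2 values of 1.29 to 1.35, adjusted p = 0.0545 to 0.0862 in edgeR). With thinned counts hsd17b3 was not tested in the Tel. Over all 31 the log2 value lay between 1.05 and 1.46. The male library with the highest value, pool B2 of WT males, had 6 UMIs of hsd17b3 in a total of 37825, and without it the log2 fold change was 1.27 with an adjusted p of 0.024.

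**Figure D2:**
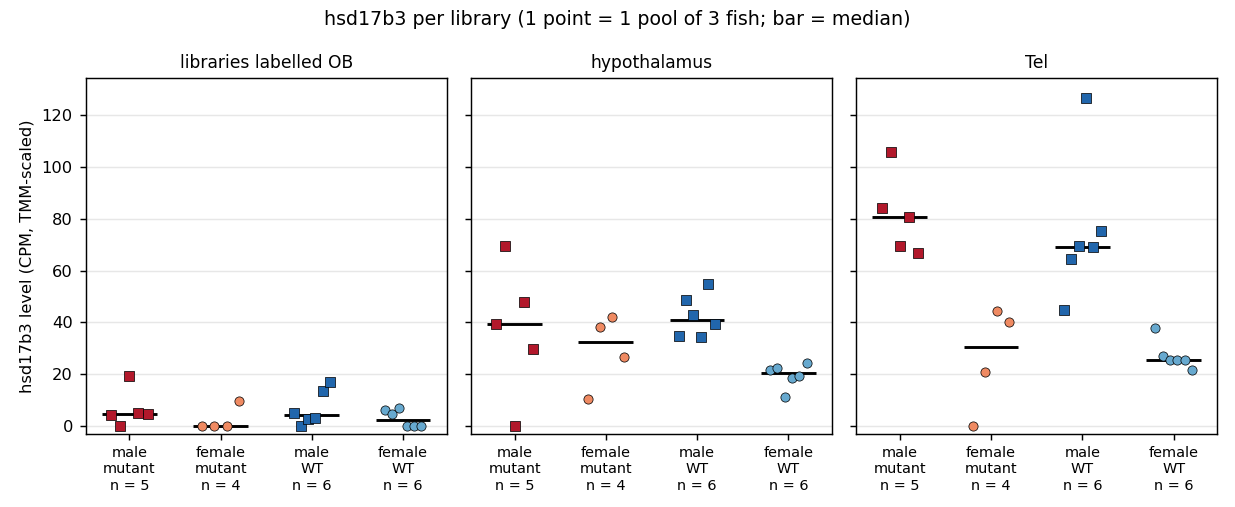
hsd17b3 in TMM-scaled CPM for each library by region and group (male mutant, female mutant, male WT, female WT); points are pools and bars are medians. Males lie above females without overlap in the Tel of both genotypes and in the WT hypothalamus, and OB libraries lie at or below 19.2 CPM.

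In the hypothalamus hsd17b3 was also separated by sex in WT fish, without passing the test. In WT males it ranged over 34.4 to 54.6 CPM with a median of 41.1 CPM, against 11.3 to 24.2 CPM with a median of 20.6 CPM in WT females. These ranges did not overlap, and the log2 fold change of 1.09 ± 0.29 had an unadjusted p of 0.000693, the 3rd smallest of 6463 genes, but an adjusted p of 0.977 in edgeR, so it was not a call (0.0155% of genes were). In mutant males it stood at 39.5, 69.6, 0, 47.9 and 29.9 CPM, against 10.3, 38.3, 42.2 and 26.7 CPM in mutant females. Here the sexes overlapped, the library at 0 being pool B2, which had a low total, and the log2 fold change was 0.40 ± 0.42 (adjusted p = 0.862 in edgeR, with 2.38% of genes called). Neither the interaction with genotype (−0.69 ± 0.51, adjusted p = 0.794, 2.04% of genes called) nor that with region in WT fish, the hypothalamus against the Tel (−0.26 ± 0.44, adjusted p = 1.00, 0.0446% of genes called), passed edgeR's test.

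Between genotypes hsd17b3 was not called in the Tel or the hypothalamus. The log2 fold changes of mutants over WT were 0.43 ± 0.40 in females and 0.28 ± 0.24 in males of the Tel, and 0.69 ± 0.41 in females and 0.01 ± 0.32 in males of the hypothalamus, with a lowest adjusted p of 0.529 in edgeR. Without pool B2 of mutant males, left out in every region at once, hsd17b3 gave 0.33 in males of the Tel (adjusted p = 0.741) and 0.20 in those of the hypothalamus (adjusted p = 0.800), and its interaction of genotype with sex in the Tel was −0.10 (adjusted p = 1.00).

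Between regions hsd17b3 was the most divided of the genes. In OB libraries it was close to absent: 4.3, 0, 19.2, 4.9 and 4.7 CPM in mutant males, 0, 0, 0 and 9.6 CPM in mutant females, 0 to 17.1 CPM (median 4.1) in WT males and 0 to 6.8 CPM (median 2.2) in WT females, in all 30 UMIs over 21 libraries. Every WT library of the OB lay below every WT library of the Tel, and the log2 fold change of OB over Tel in WT fish was −3.10 ± 0.33 (8.56-fold lower, adjusted p = 2.5e-13 in edgeR). In mutants it was −3.78 ± 0.58 (adjusted p = 2.6e-08). Against the hypothalamus, the OB values were −2.56 ± 0.33 in WT fish (adjusted p = 1.1e-10) and −3.25 ± 0.56 in mutants (adjusted p = 4.2e-07). Each of these 4 calls was kept in 28 of 28 alternatives, in a setting where many genes differ: 58.3% of genes were called between OB and Tel in WT fish and 52.9% in mutants, and 59.6% and 55% between OB and hypothalamus. The hypothalamus over the Tel gave −0.54 ± 0.22 in WT fish (adjusted p = 0.0777, 14.2% of genes called) and −0.54 ± 0.33 in mutants (adjusted p = 0.391, 8.61% of genes called), neither a call. Without pool B2 of mutant males the mutant values were −4.10 for OB over Tel, still a call, and −0.47 for the hypothalamus over the Tel (adjusted p = 0.438 in edgeR). The OB libraries, low in hsd17b3, were also low in the neuron list (482 to 1463 CPM).

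Mutant libraries of the Tel and the hypothalamus tended to lower values of hsd17b12a, although no comparison passed the test. In the Tel of mutant females it stood at 0, 21, 44.2 and 25.2 CPM (0, 1, 5 and 5 UMIs), against 25.5 to 88.8 CPM with a median of 68.9 CPM in WT females. In the Tel of mutant males it stood at 33.6, 23.5, 34.8, 40.3 and 66.7 CPM, against 42.2 to 124 CPM with a median of 69.3 CPM in WT males. The groups overlapped in both sexes, by 1 mutant library each.

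In the hypothalamus of mutant females hsd17b12a stood at 41.2, 43.1, 37.5 and 74.8 CPM, against 57.1 to 155 CPM with a median of 83.5 CPM in WT females. In mutant males it stood at 48.3, 51.5, 50.1, 70.0 and 105 CPM, against 61.9 to 154 CPM with a median of 106 CPM in WT males. Over both regions, 18 of 18 mutant libraries lay below the median of their WT group, and 13 lay below its lowest library. By their codes these libraries come from 9 mutant pools, each counted in both regions, so they are not independent. How many of all genes show the same arrangement was not counted.

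The log2 fold changes of hsd17b12a, mutant over WT, were −1.17 ± 0.48 in females and −1.05 ± 0.32 in males of the Tel, and −0.81 ± 0.33 in females and −0.71 ± 0.29 in males of the hypothalamus. Their unadjusted p-values were 0.0200, 0.00292, 0.0208 and 0.0208, and their adjusted p-values in edgeR 0.261, 0.254, 0.263 and 0.232. Unadjusted p-values of at most 0.05 were found for 12.6% and 9.67% of genes in females and males of the Tel and for 12.1% and 15.0% in those of the hypothalamus, and none of the 4 was a call. The shares of genes called were 2.46% in females and 0.0225% in males of the Tel, and 3.56% in females and 1.93% in males of the hypothalamus. With the filter, rlog values and adjustment that follow the study's description, both Tel comparisons became calls, with log2 values of −0.61 in females (adjusted p = 0.0203) and −0.65 in males (adjusted p = 0.0207). Those steps test the genes left after a fold threshold, and called 744 of 1036 such genes in females and 286 of 491 in males. Over 31 alternatives in edgeR, DESeq2 or limma, the Tel values ran from −1.60 to −0.61 in females (adjusted p = 0.0201 to 0.473). In males they ran from −1.28 to −0.65 (adjusted p = 0.0207 to 0.504) over 31 such fits. The lowest female adjusted p was not that of the rlog steps, so these were not the only setting with a call there. Without pool B2 of mutant males, the library with hypothalamic oxt, the value in Tel males was −1.01 (adjusted p = 0.364).

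The mutant libraries were shallower than the WT libraries. Within WT fish, split into the 6 deeper and the 6 shallower libraries of a region, hsd17b12a averaged 81.0 CPM in deeper and 60.0 CPM in shallower libraries of the Tel. These means were 112 and 89.3 CPM for the hypothalamus, and 74.1 and 76.1 CPM for the OB. With libraries above 175074 UMIs thinned to that total and shallower ones left as they were, the hypothalamus gave −0.88 in females (adjusted p = 0.0934) and −0.71 in males (adjusted p = 0.161), and thinned Tel libraries held too few counts for the test. A list of radial glia genes summed to 7791 to 19881 CPM in the hypothalamus of mutant females, against 16487 to 32665 CPM in WT females. There it summed to 18218 to 26380 CPM in mutant males, against 11399 to 23258 CPM in WT males. In the Tel it summed to 5410 to 25449 CPM in mutant females, against 16719 to 29415 CPM in WT females. It summed to 16086 to 24786 CPM in mutant males, against 15418 to 23108 CPM in WT males. The most abundant gene of this list was glula, with medians of 12277 CPM in hypothalamus and 12028 CPM in Tel libraries. The whole list had medians of 19596 and 19303 CPM there, so its sum was mostly that gene, and it also includes cyp19a1b. The part of depth and of this list in the difference was not tested.

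**Figure D3:**
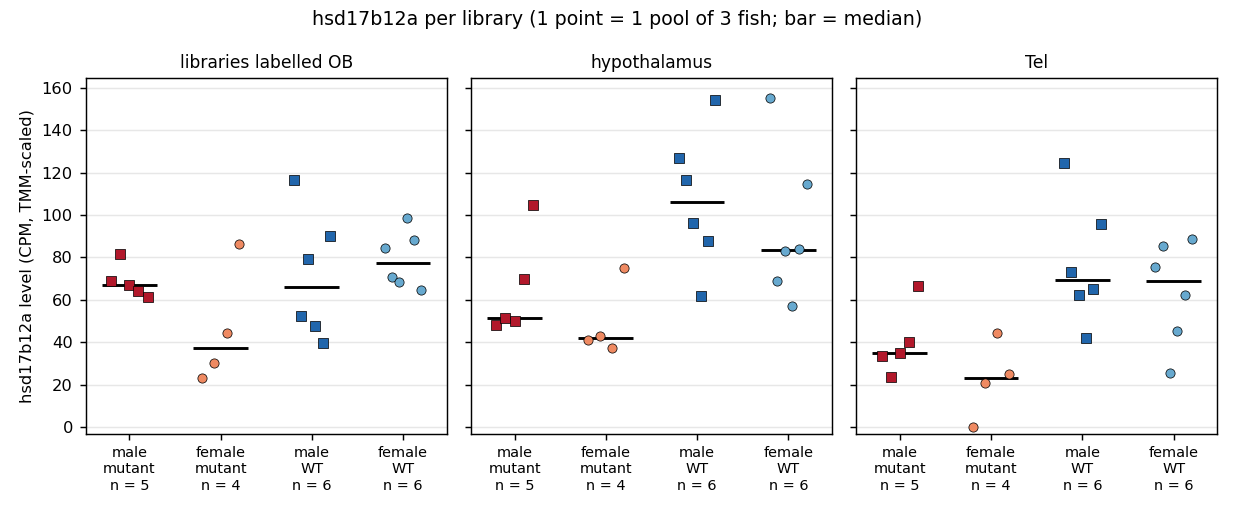
hsd17b12a in TMM-scaled CPM for each library by region and group (male mutant, female mutant, male WT, female WT); points are pools and bars are medians. In the Tel and the hypothalamus 13 of 18 mutant libraries, from 9 pools by their codes, lie below the lowest library of their WT group. In the OB the male groups overlap throughout.

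The OB did not show this arrangement in males. There hsd17b12a stood at 69.0, 81.5, 67.1, 64.1 and 61.5 CPM in mutant males, against 39.9 to 116 CPM with a median of 66.0 CPM in WT males, all inside the WT range. In mutant females it stood at 23.1, 30.5, 44.5 and 86.2 CPM, against 64.5 to 98.6 CPM with a median of 77.6 CPM in WT females, and 3 of the 4 mutant libraries lay below the lowest WT library. The log2 fold changes were −0.02 ± 0.26 in males (adjusted p = 1.00, 0.0221% of genes called) and −0.55 ± 0.39 in females (adjusted p = 0.656, 2.5% of genes called) in edgeR. The radial glia list summed to 1182 to 5705 CPM in the OB of mutant females, against 3643 to 20155 CPM in WT females, and its part was not tested. In OB libraries this sum was nearly all glula, with a median of 7887 CPM against 8124 CPM for the list, while gfap had a median of 0 CPM. The change of hsd17b12a by genotype did not differ detectably between OB and Tel (interaction 0.77 ± 0.40, adjusted p = 0.843, 0% of genes called, and 0.76 with an adjusted p of 0.882 without pool B2 of mutant males).

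Sexes did not differ detectably in hsd17b12a in any of 6 comparisons, with a lowest adjusted p of 0.724 in edgeR. Among regions, OB libraries held more of it than Tel libraries in mutants (0.81 ± 0.35, adjusted p = 0.0446 in edgeR), where 52.9% of all genes were called. This call was lost in 9 of 29 alternatives, whereas WT fish gave 0.04 ± 0.19 (adjusted p = 0.870). Left out alone, pool A1 or C1 of mutant females or pool A1, B1, B2 or C1 of mutant males ended the call. The value was 0.34 (adjusted p = 0.560) without pool C1 of mutant females and 0.71 to 0.83 (adjusted p = 0.0541 to 0.0974) without each of the others. The hypothalamus over the Tel gave 0.46 ± 0.18 in WT fish (adjusted p = 0.0627) and 0.82 ± 0.32 in mutants (adjusted p = 0.0988); with the pool of fish as a block the value in mutants was 0.87 with an adjusted p of 0.0296, a call, and without pool B2 of mutant males 0.83 with an adjusted p of 0.131. OB over hypothalamus gave −0.42 ± 0.18 in WT fish, with an adjusted p of 0.0295 but under 1.5-fold (−0.75 to −0.30 over 29 alternatives), and −0.01 ± 0.29 in mutants (adjusted p = 0.978). The genes whose means over the 12 groups, in log2(CPM + 1), were most like those of hsd17b12a were hcfc1b (r = 0.966), hsf1 (r = 0.963) and rgcc (r = 0.943), out of 3311 genes tested in all regions. These means share libraries and depth.

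The second gene of the pair, hsd17b12b, was less abundant. In the Tel it averaged 17.0 ± 4.1 CPM in mutant males and 35.5 ± 10.8 CPM in WT males, and 19.7 ± 18.5 CPM in mutant females and 20.6 ± 8.9 CPM in WT females. In the OB it averaged 14.8 ± 8.0 CPM in mutant males and 22.1 ± 8.1 CPM in WT males, and 13.5 ± 15.8 CPM in mutant females and 24.1 ± 8.9 CPM in WT females (SD, n = 5, 6, 4 and 6). The mutant means were the lower ones in these 4 pairs, but in females of the Tel they were nearly equal. Pooled over libraries, that pair went the other way, with 25.4 CPM in mutant and 20.6 CPM in WT females, while the other pairs kept their direction. Counts were below the filter in both regions and the pairs were not tested. In the hypothalamus, the region in which it was tested by genotype, it stood at 17.6, 24.2, 16.7, 25.8 and 29.9 CPM in mutant males, against 27.5 to 58.2 CPM with a median of 35.6 CPM in WT males. In mutant females it stood at 0, 57.5, 28.2 and 21.4 CPM, against 17.2 to 39.1 CPM with a median of 26.5 CPM in WT females. Mutant males lay below the WT median in all 5 libraries, while mutant females lay on both sides of theirs. The log2 fold changes were −0.67 ± 0.36 in males (adjusted p = 0.405) and 0.10 ± 0.39 in females (adjusted p = 0.968) in edgeR, and the interaction was −0.77 ± 0.54 (adjusted p = 0.775). Its OB over hypothalamus values were −0.49 ± 0.23 in WT fish, with an adjusted p of 0.0478 but under 1.5-fold, and −0.83 ± 0.41 in mutants (adjusted p = 0.0700).

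Reads that map to several places were left out of the counts, so sequence shared by hsd17b12a and hsd17b12b is lost from both and their ratio carries that uncertainty. Of the UMIs of the pair, hsd17b12a took 76.2 ± 7.0% in the OB, 75.1 ± 5.6% in the hypothalamus and 70.6 ± 13.2% in the Tel of WT pools (SD, n = 12). The differences within pools were 5.59 percentage points for OB minus Tel (p = 0.221), 4.52 for hypothalamus minus Tel (p = 0.196) and 1.07 for OB minus hypothalamus (p = 0.550) in two-sided exact sign-flip permutation tests, with an adjusted p of 0.331 for each difference from the Tel; the smallest p these tests can give is 0.000488. The share thus did not differ detectably between regions in WT pools. Mutant pools had few counts, with a median of 10 UMIs of the pair for the OB, 11 for the Tel and 21 for the hypothalamus. Their share of OB minus hypothalamus was 9.36 points (higher in 7 of 9 pools, p = 0.0234, adjusted p = 0.0703 in the exact test). Their share of OB minus Tel was 18.5 points (p = 0.242) and that of hypothalamus minus Tel 9.11 points (p = 0.586) in the same exact test.

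The groups overlapped in hsd17b4 in the hypothalamus, where it was tested by genotype and sex. It stood at 41.2, 14.4, 28.2 and 32.1 CPM in mutant females, against 13.2 to 26.3 CPM with a median of 21.4 CPM in WT females, and at 21.9, 30.3, 25.1, 18.4 and 19.9 CPM in mutant males, against 17.5 to 27.3 CPM with a median of 20.3 CPM in WT males. Neither genotype nor sex gave a call (log2 fold changes of −0.28 to 0.47, lowest adjusted p = 0.638 in edgeR). The OB of mutants held less hsd17b4 than their Tel (−1.0 ± 0.45, adjusted p = 0.0464) and their hypothalamus (−1.0 ± 0.41, adjusted p = 0.0291) in edgeR. Of all genes, 52.9% and 55% were called in these comparisons. The Tel call rests on few counts and was lost in 17 of 28 alternatives, with the pool of fish as a block among them (−0.86, adjusted p = 0.107). The highest Tel value of 119 CPM, in pool A1 of mutant females, is 4 UMIs. Leaving out any 1 of 12 pools ended it (values of −1.03 to −0.64, adjusted p = 0.0507 to 0.236), the smallest being without pool A1 of mutant females. The call against the hypothalamus was lost in 5 of 28, among them without pool A1 (−0.87) or A2 (−0.77) of mutant females and pool B1 of mutant males (−0.79). In WT fish the same comparisons gave −0.11 ± 0.25 (adjusted p = 0.693) and 0.03 ± 0.23 (adjusted p = 0.931).

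**Figure D4:**
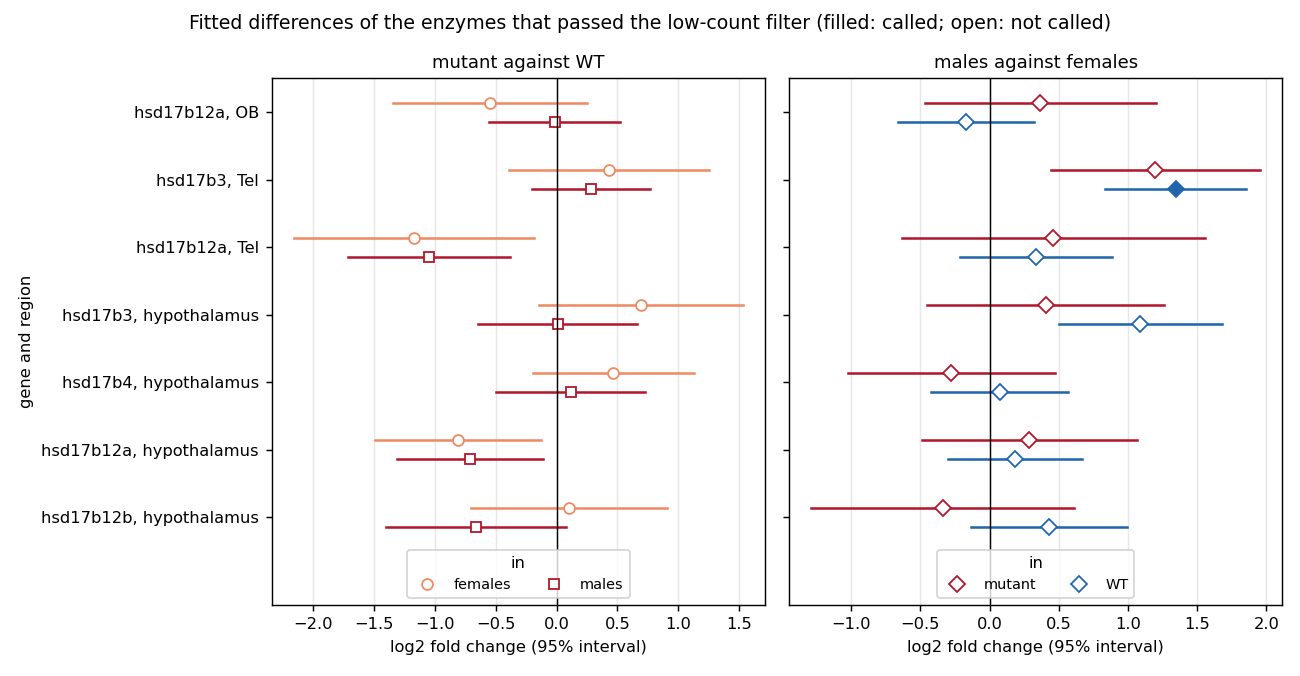
Fitted log2 fold changes (x axis) with 95% intervals for each gene and region that passed the filter on low counts, for mutants over WT by sex in 1 panel and for males over females by genotype in the other; filled points are calls and open points are not. The only filled point is hsd17b3 for males over females in the WT Tel (1.35), and hsd17b12a lies below 0 in each of 6 comparisons of mutants with WT without a call.

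Of 14 tests of a gene between genotypes, 0 were calls in edgeR and 0 in DESeq2, and 4 had an unadjusted p of at most 0.05, all of them hsd17b12a. Of 14 between sexes, 1 was a call and 3 had such a p, all of them hsd17b3. In the OB, where only hsd17b12a was tested, 0.0885% of genes were called between WT sexes and 2.19% between mutant sexes. Of 24 between regions, 7 were calls, 2 in WT fish and 5 in mutants. Of all genes, 58.3% were called in WT fish for OB against Tel, 59.6% for OB against hypothalamus and 14.2% for hypothalamus against Tel. In mutants these shares were 52.9%, 55% and 8.61%. Of 31 interactions, 0 were calls in edgeR and 0 in DESeq2, and 1 had an unadjusted p of at most 0.05, with a lowest adjusted p of 0.709. The shares of genes called were 0.199% for genotype by sex in the OB, 0.0595% for sex by region with OB against Tel and 0% with OB against hypothalamus, and 0% for genotype by region in the other pairs.

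Among the genes of the first steps, cyp11a1 was counted mainly in OB libraries. In the OB of mutants cyp11a1 gave 15 UMIs in 6 of 9 libraries, and in the OB of WT fish 59 UMIs in 12 of 12 libraries, at 4.3 to 23.5 CPM. Pooled over all libraries of a region it stood at 12.4 CPM in the OB (74 UMIs, 95% Poisson interval 9.77 to 15.6), 2.41 CPM in the hypothalamus (23 UMIs, 1.53 to 3.61) and 1.93 CPM in the Tel (11 UMIs, 0.97 to 3.46), intervals that cover counting error only. The interval of the OB did not overlap the others. With no filter on low counts, a fit that also tests such rare genes, the log2 fold changes in WT fish were 2.53 ± 0.50 for OB over Tel (adjusted p = 2.4e-06) and 2.26 ± 0.42 for OB over hypothalamus (adjusted p = 5.0e-07), and in mutants 2.08 ± 0.84 (adjusted p = 0.0314) and 2.12 ± 0.78 (adjusted p = 0.0127) in edgeR. OB libraries were also the ones with high sums of the olfactory sensory neuron list, 1273 to 3630 CPM, and of the microglia list, 10180 to 19090 CPM. The latter sum was nearly all apoeb, and the part of either list was not tested.

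Transcripts of star were scarce throughout. They summed to 13 UMIs in 7 of 21 libraries of the OB (2.18 CPM, 95% Poisson interval 1.16 to 3.74), 15 UMIs in 12 of 21 of the hypothalamus (1.57 CPM, 0.88 to 2.59) and 3 UMIs in 3 of 21 of the Tel (0.53 CPM, 0.11 to 1.54). In the Tel of mutants no star UMI was counted in 9 libraries, with an upper limit of the same 95% Poisson interval at 2.49 CPM, against 3 UMIs in 12 WT libraries. A difference by genotype was not detectable at this depth.

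Other genes of cholesterol delivery and of electron supply to the cytochromes, a list of 11 of which 7 have a row, were tested for 2 to 4 genes a region. None was called between genotypes or sexes. In WT fish, where 58.3% of all genes were called between OB and Tel (2059 of 6727 higher in OB), 3 of 3 tested were higher in OB than in Tel: tspo, a cholesterol-binding protein of the outer mitochondrial membrane (1.90 ± 0.21 on the log2 scale), and cyb5b and cyb5a, both cytochromes b5 (1.48 ± 0.37 and 0.68 ± 0.21).

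Both cyp17a1, whose product opens the way to androgens, and srd5a1 were near the counting limit. Over the regions cyp17a1 summed to 12 UMIs in the OB (2.02 CPM, 95% Poisson interval 1.04 to 3.52), 37 in the hypothalamus (3.87 CPM, 2.73 to 5.34) and 18 in the Tel (3.16 CPM, 1.88 to 5.00). In the OB of mutant males 0 UMIs were counted in 5 libraries, with an upper limit of the same 95% Poisson interval at 3.26 CPM. WT males had 8 UMIs spread over 6 of 6 libraries there (2.82 CPM, 1.22 to 5.56). That difference cannot be resolved at this depth. The counts of srd5a1 were 33 in the OB (5.55 CPM, 3.82 to 7.79), 34 in the hypothalamus (3.56 CPM, 2.47 to 4.97) and 19 in the Tel (3.34 CPM, 2.01 to 5.22), with overlapping intervals.

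Other enzymes of steroid synthesis, a list of 12 of which 9 have a row, gave no call between genotypes or sexes among the 2 or 3 tested in a region. Between regions, 1 of 3 was higher and 2 were lower in OB than in Tel of WT fish, against 58.3% of all genes called there in either direction. The higher one was srd5a2b, a 5α-reductase related to srd5a1, at 80.5 ± 19.6 CPM in the OB, against 3.9 ± 8.4 CPM in the Tel (SD, n = 12; log2 fold change 4.60 ± 0.38, adjusted p = 8.7e-18 in edgeR). The lower ones were hsd17b7, in mammals an enzyme of cholesterol synthesis that also reduces estrone (−1.65 ± 0.36), and cyp19a1b. Aromatase itself averaged 896 ± 367 CPM in mutants and 1461 ± 316 CPM in WT fish in the Tel, 649 ± 306 CPM in mutants and 916 ± 286 CPM in WT fish in the hypothalamus, and 23.4 ± 19.4 CPM in mutants and 28.2 ± 14.5 CPM in WT fish in the OB (SD, n = 9 and 12), with no call by genotype (lowest adjusted p = 0.302). It thus shared with hsd17b3 a low level in OB libraries, with a log2 fold change over the Tel of −5.65 ± 0.32 in WT fish. Among mutant males, pool A1 had the lowest cyp19a1b, at 47.0 CPM (14 UMIs) in the Tel and 87.8 CPM (20 UMIs) in the hypothalamus. The medians of mutant males there were 940 and 528 CPM, and a cause was not tested.

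Enzymes that inactivate or convert steroids, 15 of a list of 19, were tested for 3 to 7 genes a region and gave no call between genotypes or sexes. In OB over Tel of WT fish, 5 of 7 were higher and none lower, against 2059 of 6727 genes higher and 58.3% called in either direction. These were the sulfotransferases sult2st1 (5.41 ± 0.25), sult2st2 (3.93 ± 0.46) and sult2st3 (2.50 ± 0.18), which attach sulfate to steroids, hsd11b2, which inactivates cortisol (2.70 ± 0.23), and hsd17b14 (2.12 ± 0.23).

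Hsd17b12 works with elongases and a reductase in the fatty acid elongation cycle, and 15 of 17 genes of that list have a row, with 4 to 9 tested a region. The single call by genotype was the elongase elovl1b in the hypothalamus of females, with 169 ± 25 CPM in mutants and 387 ± 112 CPM in WT fish (SD, n = 4 and 6). Its log2 fold change was −1.18 ± 0.26 (adjusted p = 0.0065 in edgeR), where 3.56% of all genes were called. It was also higher in mutant males than in mutant females there (349 ± 141 against 169 ± 25 CPM, 1.07 ± 0.27, adjusted p = 0.0283 in edgeR), where 2.38% of all genes were called. The radial glia list, mostly glula, was low in the same mutant females at 7791 to 19881 CPM, and its part was not tested. In OB over Tel of WT fish, elovl7a (4.99 ± 0.37) and elovl1b (2.38 ± 0.19) were higher and elovl6 (−2.19 ± 0.22), elovl4a (−1.46 ± 0.36) and the enoyl reductase tecrb (−0.80 ± 0.19) lower, out of 8 tested, where 58.3% of all genes were called.

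In the peroxisomal β-oxidation list, in which Hsd17b4 carries out the middle steps, 14 of 16 genes have a row and 2 to 8 were tested a region. Here scp2a, which encodes the thiolase and sterol carrier protein, was higher in the hypothalamus of mutant males, with 34.1 ± 3.4 CPM in mutants and 16.6 ± 3.7 CPM in WT fish (SD, n = 5 and 6). Its log2 fold change was 1.02 ± 0.27 (adjusted p = 0.0465 in edgeR), where 1.93% of all genes were called. No other gene of this list was called between genotypes or sexes.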

How the data were processed

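BRB-seq libraries were made from polyA RNA of pools of 3 fish (RIN above 7 per the labels). Per the study's methods and the labels, reads carry a 6-base barcode and a 10-base UMI, reads were aligned to the UCSC danRer11 transcriptome (the submitters' processing notes name BWA 0.7.4.4), and reads with several places were left out. The authors deposited counts of distinct UMIs for 15418 genes in 63 libraries, without normalization.

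Tests used edgeR 4.0.16 under R 4.3.3, with TMM scaling, the filterByExpr filter and Benjamini-Hochberg adjustment over all genes tested. There was 1 quasi-likelihood fit per region over 21 libraries (4520 genes in the OB, 4437 in the Tel, 6463 in the hypothalamus). Regions and interactions with region used 1 fit over 63 libraries (6727 genes). That fit held no term for the pool of fish, so libraries of 1 pool were treated as independent. The pool as a block was an alternative. A call needs an adjusted p of at most 0.05 and 1.5-fold; interactions need the adjusted p only. CPM use TMM-scaled totals, and SDs are over pools. Replicates of a group differed by more than sampling noise (chi-square per degree of freedom 1.47 to 11.0 over 138 pairs).

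The genes and lists were chosen with earlier results of these data known, among them the higher hsd17b3 in WT males of the Tel, which is therefore no independent support. All genes of the list are named with values. From the other lists, genes called between genotypes or WT sexes are named; those named for a difference between regions, and elovl1b between mutant sexes, fall outside that rule and were picked with their values known. For genes tested in all regions the 3 genes with the most similar group means are named.

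Libraries with the same sex, genotype and pool code in different regions were taken as 1 pool of fish, from the codes alone (mean correlation of their deviations 0.116 to 0.155 over 21 pools). Alternatives were DESeq2 1.42.0, its size factors, library totals only, no filter, thinned counts, low-total libraries left out, other samples in the fit, no fold threshold, pool code or letter as a block, each pool left out, and the study's steps on rlog values (limma 3.58.1). A fit of hypothalamus against Tel without OB libraries was added after seeing the data. Scripts were tested on simulated data. For males against females in the WT Tel, edgeR called 5.56% of genes simulated with a 1.5-fold change. It called 62.8% of those with a 2-fold and 100% of those with a 4-fold change. Comparisons with mutants were not scored in this way. A gene that was not called is therefore not shown to be unchanged. Read mapping was not repeated, and no gene sequences or coordinates were used here.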

Additional observations from a re-analysis of the deposited data

Results flagged for a closer look

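Among 28 groups of 4 to 6 pools, 3 held a library far from the others by Dixon's test, where chance gives about 1 in 20 groups. For hsd17b12a, pool C1 of mutant females stood at 74.8 CPM (28 UMIs) in the hypothalamus, above the other 3 mutant female pools at 37.5 to 43.1 CPM. For hsd17b3, pool A1 of WT females stood at 37.8 CPM (6 UMIs) in the Tel, above the other WT female pools, and pool B2 of WT males at 126.6 CPM (6 UMIs of 37825) in the Tel, above the other WT male pools.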

How the results depend on the processing

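For single genes and comparisons, 1497 of the values under an alternative kept their direction and side of the threshold, 37 lost a call, 18 gained one and 1 reversed: hsd17b12b in OB over Tel of mutants was 0.19 without pool C1 of mutant females, against −0.49 with all pools, and ran from −0.97 to 0.19 over the pools left out. A further 67 uncalled values smaller than their standard error changed sign and were counted with those kept. The count of calls between genotypes (0) became 3 with the study's steps on rlog values, which called 907 of 1245 genes left after their fold step in OB females and 744 of 1036 in Tel females and moved the median log2 value of all genes there by 0.14 and 0.16. Of these 3, 2 were hsd17b12a in Tel females and males. The other was a gene in a region where the main filter had left it untested. In Tel females hsd17b12a was also a call under at least 1 other alternative, so the count of calls between genotypes was above 0 there too. Between sexes the count of calls (1) became 0 with thinned counts and 0 with only the groups compared, 2 with the rlog steps, and 0 to 1 with a pool left out. Between regions in WT fish (2) it became 4 with the library total only, 5 with no filter, 0 with thinned counts, 4 with no fold threshold, and 2 to 4 with a pool left out. In mutants (5) it became 3 with DESeq2, 3 with its size factors, 1 with thinned counts, and 2 to 6 with a pool left out. Thinning leaves fewer counts, so fewer of the genes were tested; for the other changes the cause was not tested. The hypothalamus against Tel fit without OB libraries, chosen after seeing the data, gave −0.55 for hsd17b3 in WT fish (adjusted p = 0.035 in edgeR), still under 1.5-fold.

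With the replicate code as a block, 0 comparisons of genotypes and 1 of sexes were calls. Between regions the block was the pool of fish, and 2 comparisons of WT regions and 5 of mutant regions were calls. Beyond the values given with the results, these blocks changed no call. Within regions the codes were not taken as pairs in the main fit, since in each comparison at least 1 same-coded pair correlated at 0.1 or less. That rule cannot show that pairing is absent: mean correlations ran from 0.034 to 0.201. The pools taken as the same across regions do not meet it either, with 13 to 16 of 21 above 0.1. The share of hsd17b12a in OB minus hypothalamus was −0.062 points without pool B1 of WT females, and ran to 2.04 points over the pools left out; it ran over 3.06 to 7.52 points in OB minus Tel and 3.12 to 6.35 in hypothalamus minus Tel. Library totals in place of TMM moved the median of all genes in OB over Tel of WT fish by −0.27 on the log2 scale, and leaving out pool C1 of mutant females by −0.29. The 4 rare genes could not be tested at this depth with the filter.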
